A study of Mus musculus with 10 samples.

Results

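The LIN28 proteins, TRIM71 and the machinery that makes and uses microRNAs were followed through ribosome profiling of mouse embryonic stem cells. The group has 10 genes (Lin28a, Lin28b, Trim71, Drosha, Dgcr8, Xpo5, Dicer1, Ago1, Ago2 and Tnrc6a), which were chosen by name and not by their values. Each was found as 1 listed transcript among 14534 listed coding transcripts and 15269 listed transcripts in all. The cells were CGR8, an embryonic stem cell line of mouse strain 129, grown without feeder cells on gelatin in medium with leukemia inhibitory factor. The ribosome profiling libraries came from control cells without inhibitor, from cells given DMDA-PatA (1 µM, 10 min), harringtonine (2 µg/ml, 10 min) or puromycin (0.2 mg/ml, 20 min), with 2 libraries of each. DMSO was brought to the same amount in all samples, and cycloheximide was present only after the cells had been chilled. The other 2 libraries hold the transcriptome, which is fragmented total RNA of cells without inhibitor. DMDA-PatA is an analogue of pateamine A and acts on eIF4A, the helicase subunit of the cap-binding complex. Harringtonine is an elongation inhibitor, which the study describes as partly selective for initiation sites without being specific to them. Puromycin ends the growing peptide early.

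A microRNA is cut from its primary transcript in the nucleus by DROSHA with its partner DGCR8, carried to the cytoplasm by exportin-5 (Xpo5), and trimmed by DICER1. The product guides an Argonaute protein (Ago1, Ago2) to matching sites, mostly in the 3' untranslated region (UTR) of mRNAs, where TNRC6A recruits the enzymes that shorten the tail and silence the message. LIN28A and LIN28B are RNA-binding proteins that block the maturation of let-7, a microRNA family that is held low in embryonic stem cells and rises on differentiation. TRIM71, the mouse relative of worm LIN-41, is an RNA-binding ubiquitin ligase and a classical let-7 target. No microRNA was measured here. The values below are ribosome footprints and RNA reads on the mRNAs of these proteins.

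The let-7 sequences and their possible pairing sites are shown because they tie Lin28a, Lin28b and Trim71 to the microRNA they regulate or answer to. The RefSeq table used here (GRCm38.p6) lists 10 mature let-7 sequences of the 5' arm, of which 9 share the seed (bases 2 to 8, in capitals) of let-7a. let-7a is given from its copy at chr13:48538239-48538260 on the minus strand and let-7g from chr9:106178846-106178867 on the plus strand.
mmu-let-7a-5p: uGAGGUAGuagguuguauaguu
mmu-let-7g-5p: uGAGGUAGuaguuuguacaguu
The complement of the seed, CTACCTC, was searched on the sense strand of the 3' UTRs of transcripts whose 5' UTR and ORF lengths were the same in the deposited files and in GENCODE M21 (GRCm38). It was found in 9.20% of 10860 such 3' UTRs, and in 21.3% of those of at least 2000 nt. The 6 genes of the group with matching models were Lin28a, Lin28b, Trim71, Dicer1, Drosha and Ago1. Trim71 held 4 matches in 5512 nt, Lin28b 4 in 4445 nt and Lin28a 2 in 2775 nt, while Dicer1 (3851 nt), Ago1 (4491 nt) and Drosha (169 nt) held 0. The sites nearest the stop codon are given with the match in capitals, all on the minus strand, at chr4:134005183-134005204 for Lin28a, chr10:45381016-45381037 for Lin28b, and chr9:114512466-114512487 and chr9:114512370-114512391 for Trim71.
Lin28a: ctgttgaaCTACCTCatttttg
Lin28b: cgggaagtCTACCTCatgcaag
Trim71, site nearest the stop codon: cctaagtcCTACCTCagcttaa
Trim71, next site: atttctatCTACCTCaactctt
A match is a description of the sequence, and whether let-7 acts at it was not measured.

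The bases around the start codon are shown because footprints upstream of the start codon set several of these genes apart below. Each line runs from 6 bases before the ATG (in capitals) to 1 base after it, in genome build GRCm38.
Lin28a, chr4:134018738-134018747, minus strand: acgaccATGg
Lin28b, chr10:45470057-45470066, minus strand: ggcaacATGg
Trim71, chr9:114563114-114563123, minus strand: ctgcaaATGg
Dicer1, chr12:104731910-104731919, minus strand: ctcagcATGg
Drosha, chr15:12827270-12827279, plus strand: atcgagATGc
Ago1, chr4:126468418-126468427, minus strand: tatgggATGg
A purine 3 bases before the ATG was present in 5 of the 6 (Trim71 has a C) and in 85.3% of the coding transcripts with matching models. A G directly after the ATG was also present in 5 of the 6, with Drosha the exception, against 52.4%. The 5' UTR of Lin28a (100 nt) has no ATG, that of Ago1 (162 nt) has 1, that of Lin28b (141 nt) has 3, those of Dicer1 (279 nt) and Drosha (228 nt) have 6 each, and that of Trim71 (1252 nt) has 7. At least 1 ATG was found in 51.7% of the 5' UTRs of 11016 coding transcripts, whose median length was 174 nt. All 7 upstream frames of Trim71 and all 6 of Drosha end within the 5' UTR. Those that run past the start codon are 2 of the 3 of Lin28b, 1 of the 6 of Dicer1 and the single one of Ago1. A short upstream frame of Dicer1, at chr12:104731940-104731963 on the minus strand, lies 50 nt before its start codon and has its start and stop codon in capitals.
Dicer1 upstream frame: ATGaaagaaacactggatgatTGA

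The control libraries held 9559519 and 11161453 reads on coding transcripts, the 6 libraries with inhibitor 1027314 to 2802597, and the transcriptome libraries 25508180 and 59271162. The ribosome profiling values are footprints divided by the authors' size factor from spiked-in RNA, called normalised footprints below, so a fall of all transcripts at once stays visible. On this scale the 2 harringtonine libraries stood apart from each other by a median of 2.10 fold over the 10 genes, against 1.13 fold in control. All 12 embryonic stem cell markers were detected in every library. Of 12 markers of fibroblasts and differentiated cells 11 were listed, none at 0 in control. They summed to 30.1 and 32.9 per 10000 ORF reads in control, against 48.6 and 50.4 for the stem cell markers, and to 77.8 and 82.7 against 20.9 and 19.2 in the transcriptome, mostly from Col1a1, Acta2 and Col1a2. In the inhibitor libraries the ranges were 30.6 to 52.5 and 66.7 to 94.3. Their part in the values of the 10 genes was not tested. In bulk cells, fewer cells of a type and less RNA per cell cannot be told apart.

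In cells without inhibitor all 10 genes were transcribed and carried footprints, at levels spread over a more than 10 fold range. Lin28a was the highest of the 10 on both measures. Its ORF (627 nt, 209 codons) held 3893 ± 38.0 normalised footprints per kb (SD, n = 2), followed by Xpo5 at 1163 ± 133, Trim71 at 725 ± 39.6 and Drosha at 510 ± 25.6. Dgcr8 (326 ± 23.3) and Dicer1 (321 ± 47.7) overlapped between libraries, Lin28b held 227 ± 25.9 and Ago2 133 ± 4.94, and Ago1 (120 ± 12.7) overlapped with Tnrc6a (113 ± 17.7). The other neighbours in this order did not overlap between libraries. In the transcriptome the order was different. Lin28a had 4805 ± 188 normalised reads per kb of ORF and Trim71 3643 ± 480. Drosha, Xpo5 and Dicer1 followed at 1964 ± 262, 1905 ± 138 and 1797 ± 98.0, each overlapping with the next, and then came Dgcr8 at 1371 ± 21.9. Tnrc6a (1305 ± 64.0) overlapped with Lin28b (1265 ± 9.59), and Ago1 at 621 ± 91.4 and Ago2 at 380 ± 25.99 came last.

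The ratio of ORF footprints to transcriptome reads, often called translation efficiency, was therefore tested for each gene against the average transcript in control cells. It was above the average for Lin28a and Xpo5 and below it for 7 of the 10 genes, among them both nuclear and cytoplasmic steps of the pathway. Of 13717 transcripts tested, 36.5% were lower and 34.2% were higher, so calls in either direction were common. Lin28a stood at 1.15 ± 0.10 on the log2 scale (SE, edgeR quasi-likelihood test, adjusted p = 8.5e-08) and Xpo5 at 0.74 ± 0.09 (edgeR, adjusted p = 4.8e-06). Tnrc6a was the lowest at -2.08 ± 0.10 (edgeR, adjusted p = 3.6e-10). Dicer1 (-1.04 ± 0.10), Lin28b (-1.03 ± 0.12), Ago1 (-0.91 ± 0.13), Trim71 (-0.87 ± 0.10), Dgcr8 (-0.62 ± 0.10) and Drosha (-0.49 ± 0.10) were also below the average. Ago2 was at -0.05 ± 0.12 and did not pass the test. The median of the 10 genes was -0.75, against -0.04 over all transcripts tested. Other genes of microRNA processing and silencing did not share this. Of 38 tested, 14 were lower (background 36.5%) and 17 higher (background 34.2%), with a median of 0.21. Lin28a and Lin28b lay on opposite sides of the average.

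**Figure D1:**
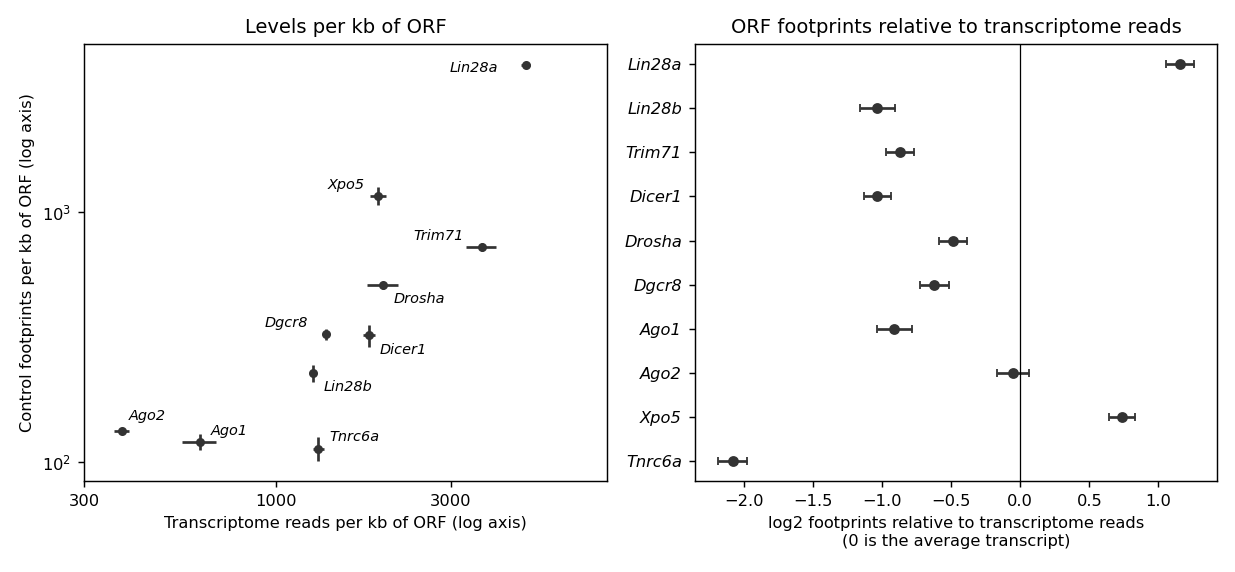
The left panel plots normalised control footprints per kb of ORF against normalised transcriptome reads per kb of ORF (log axes), with points at the mean of 2 libraries and bars from the lower to the higher library. The right panel plots the log2 ratio of ORF footprints to transcriptome reads with its standard error, where 0 is the average transcript. Lin28a is highest on both axes of the left panel, and Lin28a (1.15) and Xpo5 (0.74) lie to the right of 0 in the right panel while Tnrc6a (-2.08) lies farthest to the left.

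All 3 inhibitors lowered ORF footprints of all 10 genes, and DMDA-PatA lowered them most on average. For Lin28a the control libraries held 2424 and 2457 normalised ORF footprints, the harringtonine libraries 1001 and 790, the puromycin libraries 554 and 623, and the DMDA-PatA libraries 125 and 262. The groups of Lin28a did not overlap. For Lin28b the values were 199 and 170 in control, 28.4 and 12.6 in the harringtonine libraries, 31.0 and 44.8 in those of puromycin and 8.84 and 7.31 in those of DMDA-PatA. Lin28b rested on few reads, with 14 and 9 in the DMDA-PatA libraries. For Trim71 the values were 1932 and 1788 in control, 108 and 46.9 in the harringtonine libraries, 159 and 159 in those of puromycin and 36.6 and 50.3 in those of DMDA-PatA. Here the harringtonine and DMDA-PatA libraries overlapped.

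The nuclear pair was lowered by every drug. Drosha, the nuclease, fell from 2175 and 2026 normalised ORF footprints in control to 92.3 and 48.3 in the harringtonine libraries, 105 and 137 in those of puromycin and 51.8 and 67.4 in those of DMDA-PatA. Its RNA-binding partner Dgcr8 held 793 and 717 in control and 14.5 and 28.4 with DMDA-PatA. The exporter Xpo5, which had the most ORF footprints of the group before length was taken into account, held 4542 and 3861 in control, 469 and 202 in the harringtonine libraries, 358 and 341 in those of puromycin and 124 and 144 in those of DMDA-PatA. Dicer1 held 2030 and 1644 in control, 108 and 44.1 in the harringtonine libraries, 108 and 128 in those of puromycin and 41.7 and 41.4 in those of DMDA-PatA. The control libraries of these 4 genes were far above all treated ones.

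The Argonaute genes, whose ORFs are of nearly the same length (2571 nt for Ago1 and 2580 nt for Ago2), differed in what DMDA-PatA and harringtonine left of them, which was not tested between the genes. Ago1 held 332 and 286 normalised ORF footprints in control, 46.7 and 25.2 in the harringtonine libraries, 26.9 and 38.5 in those of puromycin and 21.5 and 28.4 in those of DMDA-PatA, so that its 3 treated groups overlapped. Ago2, the Argonaute that can cut its target, held 352 and 334 in control, 128 and 93.1 in the harringtonine libraries, 39.3 and 56.0 in those of puromycin and 3.79 and 8.93 in those of DMDA-PatA, and its groups did not overlap. The last pair of values stood on 6 and 11 reads. Tnrc6a held 716 and 573 in control and 26.5 and 37.3 with DMDA-PatA.

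**Figure D2:**
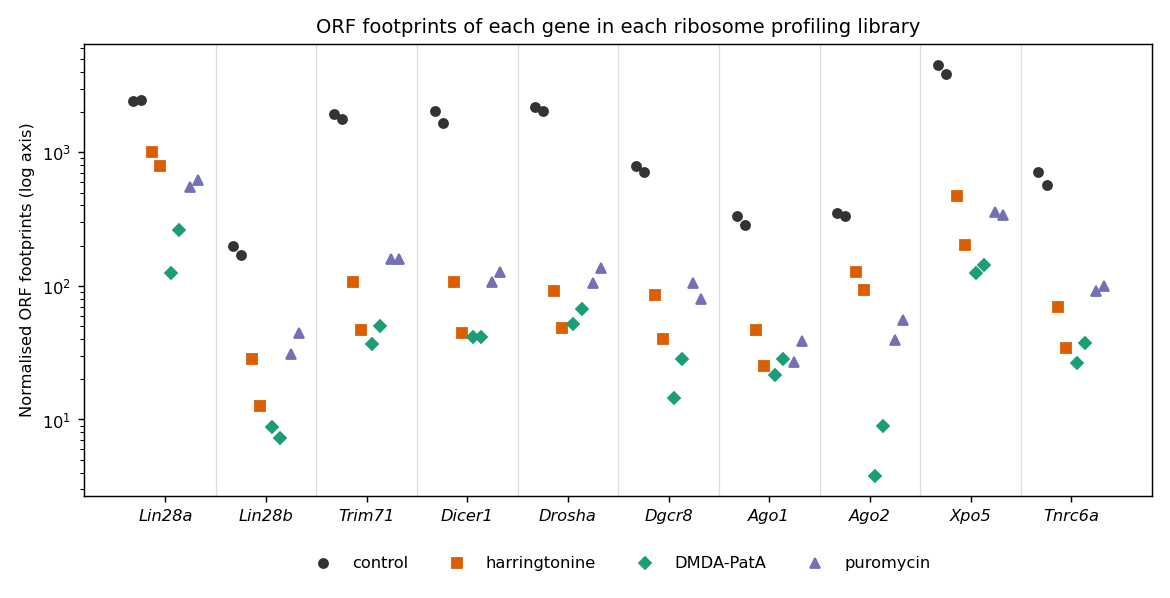
Normalised ORF footprints (log axis) of each gene in each of the 8 ribosome profiling libraries, with 2 points per condition, 1 per library. Control lies above every treated library for all 10 genes, and the lowest points are those of Ago2 (3.79 and 8.93) and Lin28b (8.84 and 7.31) with DMDA-PatA, which overlap.

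On the spike-in scale each of these falls passed the test. With DMDA-PatA 10 of 10 genes were lower (edgeR, background 99.3% of 12499 transcripts), with harringtonine 10 of 10 (background 92.9%) and with puromycin 10 of 10 (background 90.1%), so the count repeats what nearly every transcript did. The 3 comparisons share their control libraries. The changes with DMDA-PatA ran from -5.77 ± 0.55 for Ago2 to -3.63 ± 0.47 for Ago1 on the log2 scale (SE), with a median of -5.05 against -4.32 over all transcripts. With harringtonine they ran from -4.91 ± 0.52 for Drosha to -1.45 ± 0.45 for Lin28a, with a median of -3.62 against -2.97. With puromycin they ran from -4.11 ± 0.50 for Drosha to -2.05 ± 0.46 for Lin28a, with a median of -3.12 against -2.48. Expressed as footprints left, DMDA-PatA left 1.85% of the control level for Ago2, 2.26% for Dicer1, 2.34% for Trim71, 7.93% for Lin28a and 8.06% for Ago1, with a median of 4.63% over 9943 coding transcripts. Harringtonine left 36.7% for Lin28a and 32.2% for Ago2 but 3.35% for Drosha, 4.13% for Dicer1 and 4.15% for Trim71, with a median of 11.96%.

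To ask which genes fell more or less than the rest, the same reads were scaled to the average transcript (TMM scaling in edgeR), which removes the common fall. With DMDA-PatA 6 of the 10 genes fell more than the average transcript (background 23.6%) and 1 less (background 18.8%). With harringtonine 6 fell more (background 30.0%) and 2 less (background 26.6%). With puromycin 6 fell more (background 24.9%) and none less (background 24.3%). Trim71, Dicer1, Drosha, Dgcr8 and Xpo5 were lower in all 3 comparisons, which have the control libraries in common. Trim71 was at -1.19 ± 0.20 with DMDA-PatA (edgeR, adjusted p = 8.2e-05), -1.79 ± 0.19 with harringtonine (edgeR, adjusted p = 1.7e-07) and -1.09 ± 0.19 with puromycin (edgeR, adjusted p = 7.8e-05). Dicer1 was at -1.20 ± 0.22, -1.81 ± 0.22 and -1.49 ± 0.22, and Drosha at -0.91 ± 0.19, -2.08 ± 0.19 and -1.65 ± 0.19 in the same order. Without replicate 1 of DMDA-PatA the change of Dgcr8 with that drug was -0.78 (adjusted p = 0.055), and without replicate 2 that of Xpo5 was -0.53 (adjusted p = 0.12).

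Lin28a went the other way with harringtonine, at 1.45 ± 0.20 above the average transcript (edgeR, adjusted p = 4.4e-06), and stood at 0.51 ± 0.21 with DMDA-PatA and 0.40 ± 0.20 with puromycin, which did not pass the test. Lin28b did not pass it in any of the 3, with values of -0.24 ± 0.35, -0.36 ± 0.28 and 0.22 ± 0.28 for DMDA-PatA, harringtonine and puromycin. Ago2 was 1.24 ± 0.19 above the average with harringtonine (edgeR, adjusted p = 1.7e-05) and -1.58 ± 0.33 below it with DMDA-PatA (edgeR, adjusted p = 0.00075), which makes it the member with the widest gap between the drugs. Ago1 was 0.60 ± 0.23 above the average with DMDA-PatA, a call close to the threshold (edgeR, adjusted p = 0.043). It was lost in each fit without a control or DMDA-PatA library, where the value was 0.51 to 0.69. The call was also lost with DESeq2 (adjusted p = 0.12) and without the filter on low counts (edgeR, adjusted p = 0.074). Tnrc6a was lower with harringtonine (-0.81 ± 0.20, edgeR, adjusted p = 0.0017) and did not pass the test with DMDA-PatA (-0.11 ± 0.21) or puromycin (-0.28 ± 0.20). With puromycin the lower calls of Ago1 (-0.74 ± 0.25) and Dgcr8 (-0.60 ± 0.21) were lost without either control library. Each was also lost in 1 fit without a puromycin library, at -0.49 for Ago1 (without replicate 1) and -0.37 for Dgcr8 (without replicate 2). With DESeq2 both were lost too (adjusted p = 0.065 for Ago1 and 0.070 for Dgcr8).

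**Figure D3:**
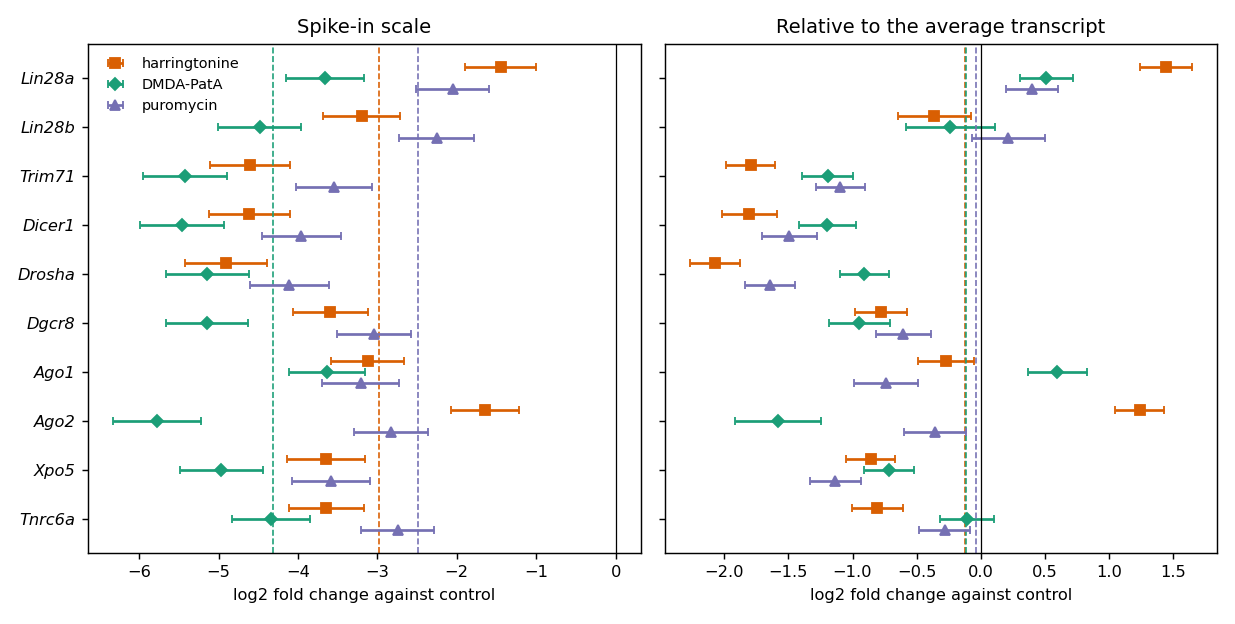
log2 fold changes of ORF footprints against control with their standard errors (bars), for harringtonine, DMDA-PatA and puromycin, on the spike-in scale (left) and relative to the average transcript (right), where dashed lines mark the median of all 12499 transcripts in each comparison. On the left every gene lies below 0. On the right Trim71, Dicer1, Drosha, Dgcr8 and Xpo5 lie left of 0 for all 3 drugs, and Lin28a (1.45) and Ago2 (1.24) lie to the right with harringtonine.

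The length of the ORF moved with what was left. Across the 10 genes the Spearman correlation between ORF length and the log2 change was -0.65 for harringtonine, -0.64 for puromycin and -0.31 for DMDA-PatA, and across 12107 coding transcripts it was -0.47, -0.57 and -0.22. These are correlations across genes measured in the same libraries, and genes are not independent replicates. Coding transcripts with an ORF of at most 900 nt, such as Lin28a (627 nt) and Lin28b (813 nt), had a median change of -2.06 with harringtonine, and those over 2000 nt a median of -3.61. Lin28a (-1.45) lay above the first value and Lin28b (-3.20) below it. Among the genes with long ORFs Ago2 (-1.64) lay far above the second value and Drosha (-4.91) below it. The ratio of footprints to transcriptome reads in control moved with ORF length as well, with a correlation of -0.39 across the 10 genes and -0.45 across 13476 coding transcripts. Its median was 0.58 for ORFs of at most 900 nt and -0.65 for those over 2000 nt. The part of ORF length in the values of single genes was not tested.

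DMDA-PatA was compared with the other drugs directly. On the spike-in scale it left fewer ORF footprints than harringtonine on 5 of the 10 genes (background 52.8%), with Ago2 at -4.14 ± 0.54 (edgeR, adjusted p = 3.1e-12), Lin28a at -2.21 ± 0.46 (edgeR, adjusted p = 1.4e-05), Dgcr8 at -1.55 ± 0.48, Xpo5 at -1.31 ± 0.46 and Lin28b at -1.28 ± 0.56. For Drosha the difference was -0.23 ± 0.46. The count fell to 2 without replicate 1 of harringtonine, to 2 without replicate 1 of DMDA-PatA, and rose to 8 without replicate 2 of harringtonine. The calls for Ago2 and Lin28a held in each fit without 1 library. Lin28b was called in 1 such fit only, without replicate 2 of harringtonine, and stood at -0.62 to -1.43 in the others, at -1.31 with DESeq2 (adjusted p = 0.058) and at -0.74 with the size factors of the 2 drugs exchanged (adjusted p = 0.16). Dgcr8 (-0.92 and -1.13) and Xpo5 (-0.59 and -1.21) were not called without replicate 1 of harringtonine or of DMDA-PatA. Relative to the average transcript, 2 genes (Ago2 and Lin28a) were lower with DMDA-PatA than with harringtonine (background 18.0%) and 4 (Drosha, Ago1, Tnrc6a and Trim71) were higher (background 15.8%). Against puromycin, DMDA-PatA left fewer footprints on 9 of the 10 genes (background 67.4%), all but Ago1 (-0.42 ± 0.50), with the widest gap again for Ago2 (-2.95 ± 0.56, edgeR, adjusted p = 1.1e-06). The count was 7 to 9 without 1 library. Drosha (-1.03 ± 0.47) was not called in 5 of these fits, at -0.83 to -1.20, nor without the filter on low counts or with a replicate block (both -1.03). Lin28a was at -1.17 and not called without replicate 1 of DMDA-PatA, Xpo5 at -1.34 without replicate 1 of puromycin and Dicer1 at -1.37 without replicate 2 of puromycin. Relative to the average transcript 1 gene, Ago2, was lower in that comparison (background 19.1%), and 2, Drosha and Ago1, were higher (background 17.8%).

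The 5' UTRs of these genes differed widely in how many footprints they held. In control 36.8% and 38.8% of all footprints of Trim71 lay on its 5' UTR, the highest shares of the 10, against a median of 1.44% and 1.47% over 9741 coding transcripts. Per nt, the 5' UTR of Trim71 held 1.22 and 1.31 times the footprints of its ORF. The ratio was 3.18 and 2.59 for Drosha, 1.64 and 1.88 for Lin28b, and 2.13 and 0.97 for Dicer1, and at most 0.63 for Dgcr8, Tnrc6a, Ago1, Ago2, Xpo5 and Lin28a. The median coding transcript stood at 0.12 in both libraries. Drosha was above 98.2% and 97.0% of coding transcripts, Lin28b above 94.1% and 95.0%, and Trim71 above 90.7% and 91.4%. At the other end, Lin28a had 4 and 6 reads on its 5' UTR beside 2056 and 2711 on its ORF, a ratio of 0.012 and 0.014, below which lay 29.9% of coding transcripts in each library. The 4 genes with the densest 5' UTRs have at least 3 upstream ATGs each, and Lin28a has none. This is a description of 6 genes with matching models, not a test.

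With DMDA-PatA the 5' UTR footprints of 7 of the 9 genes tested fell (background 29.0% of 6647 transcripts, edgeR on the spike-in scale), and those of none rose. Ago2 had too few 5' UTR reads to be tested, at most 2 per library on a listed 5' UTR of 58 nt. For Trim71 the 5' UTR held 1146 and 1147 normalised footprints in control and 223 and 308 with DMDA-PatA, a change of -2.11 ± 0.45 (edgeR, adjusted p = 2.5e-05). Its ORF changed by -5.42 ± 0.53 in the same libraries. Drosha fell from 383 and 290 to 68.8 and 149 (-1.63 ± 0.45), Dicer1 from 211 and 78.0 to 11.4 and 21.1 (-3.16 ± 0.52), and Lin28b from 56.6 and 55.3 to 5.68 and 5.68 (-3.27 ± 0.60, edgeR, adjusted p = 8.5e-07). Dgcr8 (-1.68 ± 0.48) and Tnrc6a (-1.63 ± 0.58) were also lower, and so was Ago1, on 2 and 1 reads against 5 and 7. Ago1 had enough 5' UTR reads to be tested only through the harringtonine libraries (42 and 29 reads), so its calls on this region support nothing. Lin28a and Xpo5 stood at 1.35 ± 0.74 and 1.22 ± 0.66 and did not pass the test. The sources used here disagree on which size factors belong to harringtonine and which to DMDA-PatA, and with the other assignment 6 of these genes were lower and 2, Lin28a and Xpo5, were higher. Lin28a and Xpo5 also had enough 5' UTR reads to be tested only through libraries with inhibitor, so these 2 higher calls support nothing. The median of the 9 genes was -1.68, against -0.48 over all transcripts tested. The count was 4 without replicate 1 of control and 4 without replicate 1 of DMDA-PatA. The calls of Drosha (-1.42 and -1.18), Tnrc6a (-1.48 and -1.54) and Ago1 (-2.46 and -2.74) were lost in those 2 fits, that of Ago1 also without the other library of either group (-2.35 and -2.18).

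With harringtonine the 5' UTR footprints of Dicer1 fell, and Xpo5 was called higher on few control reads. Dicer1 was lower (1 of 9, background 5.21%), from 211 and 78.0 normalised footprints to 70.0 and 32.2 (-1.51 ± 0.48, edgeR, adjusted p = 0.0065). Higher calls were made for 2 of 9 (background 35.1%), and 1 of these was Ago1, which went from 5.89 and 6.35 normalised footprints to 42.6 and 20.3 and was tested only because of the latter. Xpo5 went from 8.25 and 5.44 to 53.8 and 22.4 (2.46 ± 0.63, edgeR, adjusted p = 0.00074). With 7 and 6 reads in control, Xpo5 was tested only through libraries with inhibitor, so this call supports nothing. For Trim71 the values were 1180 and 818 beside 1146 and 1147 in control (-0.20 ± 0.43), which did not pass the test. The median of the 9 genes was 0.18, against 0.88 over all transcripts tested. The count of 3 fell to 1 without replicate 2 of control (Dicer1), without replicate 1 of harringtonine (Dicer1) and without replicate 2 of harringtonine, where Dicer1 stood at -1.04. Without replicate 1 of control Dicer1 was at -0.62 and not called. Ago1 had too few reads to be tested without either harringtonine library. Xpo5 was at 2.17 without replicate 2 of control and at 1.72 without replicate 1 of harringtonine, and was not called in either.

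With puromycin none of the 9 genes passed the edgeR test on the 5' UTR (background 0.406% lower and 0.557% higher), 1 had an unadjusted p below 0.05, DESeq2 called 0 and limma 1. The 1 gene was Lin28a, whose 5' UTR held 0 reads in both puromycin libraries beside 4 and 6 in control, and no fold is given because these counts are close to the 3 reads that a count of 0 allows. Trim71 held 1474 and 890 normalised footprints on its 5' UTR, around the control values of 1146 and 1147 (0.04 ± 0.43). Its ORF fell by 3.55 on the log2 scale in the same libraries.

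Because ORF footprints fell far more than those of the 5' UTR, the share of footprints on the 5' UTR rose for most of these genes, as it did for most transcripts. Relative to ORF footprints of the same library, the 5' UTR was higher for 7 of 9 genes with DMDA-PatA (edgeR, background 93.6% of 6497 transcripts), 9 of 9 with harringtonine (background 95.4%) and 8 of 9 with puromycin (background 78.3%). Ago1 is counted under harringtonine and puromycin, and Lin28a and Xpo5 are also among the genes counted. Each of these was tested on the 5' UTR only through libraries with inhibitor. The share of Trim71 went from 36.8% and 38.8% to 76.5% and 76.2% under DMDA-PatA, 85.1% and 89.6% under harringtonine, and 88.7% and 81.5% under puromycin. That of Drosha went from 15.0% and 12.5% to 56.8% and 68.5%, 80.7% and 87.7%, and 75.1% and 66.1% in the same order. The share of Lin28b moved from 22.0% and 24.2% to 31.0% and 31.8% with DMDA-PatA, a change of 1.20 ± 0.59 in the log2 ratio of 5' UTR to ORF that did not pass the test (edgeR, adjusted p = 0.058), and to 67.2% and 59.3% with harringtonine (2.96 ± 0.44). The share of Lin28a rose from 0.19% and 0.22% to 5.44% and 5.93% under DMDA-PatA, a change in the ratio of 5.02 ± 0.51 (edgeR, adjusted p = 2.7e-08), and to 1.42% and 0.84% under harringtonine (2.48 ± 0.55, edgeR, adjusted p = 0.00029). The medians over all transcripts tested were 4.36 and 4.00. With puromycin Lin28a held 0 of 290 and 0 of 522 reads on its 5' UTR, which allow shares of up to 1.03% and 0.575% (3 reads, counting error only). Xpo5 had the largest change in the ratio with DMDA-PatA, 6.18 ± 0.46, from 7 and 6 reads in control to 22 and 22. Like Lin28a, it was tested only through libraries with inhibitor, so this rise supports nothing. The calls of Trim71 held in every fit without 1 library. With puromycin the calls of Lin28b (1.37 ± 0.48) and Ago1 (3.04 ± 0.95) were lost without replicate 1 of puromycin, at 1.07 and 0.78, and that of Lin28b also without replicate 1 of control, at 1.28. 

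**Figure D4:**
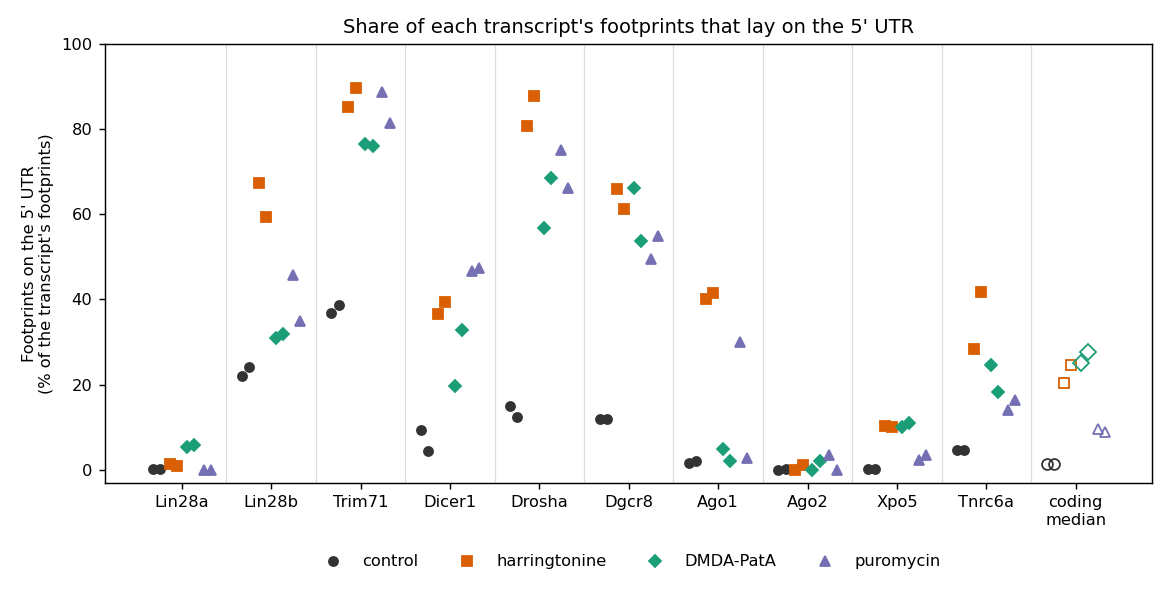
Share of each transcript's footprints (in %) that lay on its 5' UTR in each ribosome profiling library, with 2 points per condition, 1 per library, and open symbols for the median of 9741 coding transcripts. Trim71 is highest in control (36.8% and 38.8%) and among the highest with each drug, and Lin28a, Xpo5 and Ago2 stay near 0 in control.

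Footprints on the 3' UTR, where the let-7 matches lie, were few and were described without a test. For Trim71 they numbered 31 and 24 reads in control, 51 and 57 under DMDA-PatA, 97 and 69 under harringtonine, and 14 and 35 under puromycin. As normalised footprints these are 36.5 and 21.8, 32.2 and 46.3, 98.4 and 48.3, and 29.0 and 43.5, so the DMDA-PatA and control libraries overlapped while those of the ORF were far apart. Lin28a held 77 and 62 reads on its 3' UTR in control and 28 and 42 with DMDA-PatA. For Ago2 the 3' UTR carried 31 and 36 of the few reads left with DMDA-PatA, 83.8% and 75.0% of its footprints, against 7.72% and 2.37% in control. As normalised footprints the 3' UTR of Ago2 held 19.6 and 29.2 with DMDA-PatA and 29.5 and 8.16 in control, which overlapped. In the transcriptome the 3' UTRs of Trim71 and Ago2 held 14993 and 32146 and 9653 and 20250 reads. The listed model of Xpo5 gave 0 reads on the 3' UTR in every ribosome profiling library and 0 and 1 in the transcriptome, so it could not be described there.

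Other genes of microRNA processing and silencing also lost ORF footprints. Of 38 such genes 37 were tested, and 37 fell under DMDA-PatA, 36 under harringtonine and 35 under puromycin, with medians of -4.98, -3.22 and -2.85 on the spike-in scale against -4.32, -2.97 and -2.48 over all transcripts. The background shares are the 99.3%, 92.9% and 90.1% given above. Relative to the average transcript 21 were lower (background 23.6%) and 3 higher (background 18.8%) with DMDA-PatA. The farthest fallen with DMDA-PatA were Pabpc1, the poly(A)-binding protein (-6.68 ± 0.58), and Cnot3, a subunit of the CCR4-NOT deadenylase (-6.21 ± 0.55). The least fallen were Tarbp2, a partner of DICER1 (-3.18 ± 0.53), and Ncbp2, the small subunit of the nuclear cap-binding complex (-3.24 ± 0.46). Pabpc1 lost much less with the other drugs, at -2.34 ± 0.47 with harringtonine and -0.97 ± 0.45 with puromycin.

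Of 28 let-7 targets and LIN28 partners 26 were tested, and 26 fell under DMDA-PatA, 26 under harringtonine and 23 under puromycin, with medians of -4.97, -3.30 and -2.26. Relative to the average transcript 14 were lower (background 23.6%) and none higher (background 18.8%) with DMDA-PatA, while with puromycin 9 were lower (background 24.9%) and 9 higher (background 24.3%). The farthest fallen with DMDA-PatA were the growth regulators Mycn (-6.45 ± 0.57) and Myc (-6.36 ± 0.56), at -2.99 ± 0.48 and -3.58 ± 0.48 with harringtonine. The least fallen were the cell cycle activator E2f2 (-3.14 ± 0.63) and Cdc34, a ubiquitin-conjugating enzyme (-3.92 ± 0.49). In control cells 14 of the 26 were above (background 34.2%) and 6 below (background 36.5%) the average transcript in footprints per transcriptome read. The median was 0.48. Among the members with let-7 matches, Lin28a was above the average transcript as well, and Lin28b and Trim71 were below it.

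Of 6497 coding transcripts tested on both regions, those nearest to a given gene by the distance over its 6 log2 changes (ORF and 5' UTR, 3 drugs) were Gli2 (0.34), Jmjd1c (0.37) and Zmiz2 (0.42) for Trim71, Rptor (0.42), Apc (0.72) and Camsap2 (0.74) for Dicer1, and Cxcl16 (0.66), Slc35c2 (0.67) and Cd276 (0.72) for Lin28b. For Lin28a the nearest were farther away, Ell3 at 1.25, Prpf4 at 2.11 and Msx2 at 2.22. Its 5' UTR change with puromycin, which enters the distance, stands on 0 reads.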

How the data were processed

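Ribosome footprints and fragmented total RNA had been sequenced by the authors on a SOLiD instrument, aligned in color space to mm10 (GRCm38) without reads of several matches, restricted to matches of footprint length, and counted per ORF, 5' UTR and 3' UTR of 1 transcript per gene. The deposited values are signal, that is reads divided by size factors (spiked-in RNA for footprints, between replicates for the transcriptome). Each deposited value, divided by the lowest value above 0 of its library and region, was a whole number within 0.01, and these recovered whole reads were tested. The sources used here disagree on which size factors belong to harringtonine and which to DMDA-PatA. Which is right was not settled, and it bears on every spike-in value of both drugs. The deposited assignment was used, with the other as an alternative. Strand was kept in the libraries. Symbols and coordinates came from GENCODE M21 and miRNA sequences from RefSeq. The listed model of Dgcr8 has no coding sequence in M21, and those of Ago2, Xpo5 and Tnrc6a differ in their 5' UTR, so no sequence is given for these 4 genes.

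Features were tested if 2 or more libraries had 10 or more reads, with edgeR 4.0.16 and limma 3.58.1 in R 4.3.3 (quasi-likelihood, Benjamini-Hochberg adjustment over all features, adjusted p of 0.05), with the 4 ribosome profiling groups in 1 fit without covariates, on the authors' size factors or with TMM scaling. The change of 5' UTR against ORF reads was a region by drug interaction with a term for each library. Footprints against transcriptome reads were fitted over the control and transcriptome libraries with TMM scaling. Alternatives were DESeq2 1.42.0, limma on log2 of the deposited value plus a pseudocount of 1, other size factors, no filter, a replicate block and fits without each library. Simulated data were run through the main edgeR fits of ORF footprints and of the 5' UTR ratio, for DMDA-PatA against control. The edgeR fit of footprints against transcriptome reads was run on them as well. The other fits and the alternatives were not. Tables and figures were made in Python 3.11.15 with pandas 2.3.3, numpy 2.4.6 and matplotlib 3.10.9.

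The text names all 10 genes, the 2 lowest and 2 highest of each outside list by their change with DMDA-PatA, and the 3 nearest transcripts of Lin28a, Lin28b, Trim71 and Dicer1. The genes and lists were chosen with earlier results of these data known. The study calls the libraries biological replicates, and the labels do not say which cultures they came from. The p-values therefore measure the spread between the 2 libraries of a group, estimated over all groups of a fit at once. Depth ranged from 1027314 to 59271162 reads on coding transcripts, and intervals from it cover counting error only.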

Additional observations from a re-analysis of the deposited data

How the results depend on the processing

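Of 108 values of the 10 genes that passed a test, 52 of 54 kept their direction and call when DMDA-PatA and harringtonine exchanged their size factors, 103 of 108 with DESeq2, 106 of 108 without the filter on low counts and 54 of 54 with limma on log2 values, and 88 of 108 kept them in every fit without 1 library in which the gene was tested. The calls against control on ORF footprints on the spike-in scale, those of harringtonine relative to the average transcript, those of footprints against transcriptome reads, and those of the 5' UTR against the ORF with DMDA-PatA and harringtonine all held in each such fit. Among the last, Lin28a, Xpo5 and, with harringtonine, Ago1 were tested only through libraries with inhibitor, so their calls support nothing.

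Scaling to the average transcript (TMM) in place of the spike-in removes the common fall and reversed 13 of 54 values, by its construction, while 11 lost their call and 30 kept both. Lin28a became 0.51 (DMDA-PatA), 1.45 (harringtonine) and 0.40 (puromycin), Ago1 0.60 (DMDA-PatA), Ago2 1.24 (harringtonine) and Lin28b 0.22 (puromycin) against control. DMDA-PatA against harringtonine became 0.13 for Lin28b and 0.14 for Xpo5, and DMDA-PatA against puromycin 0.11 for Lin28a, 0.30 for Dicer1, 0.74 for Drosha, 0.42 for Xpo5 and 0.18 for Tnrc6a. The median change of all transcripts moved from -4.32 to -0.12 with DMDA-PatA, from -2.97 to -0.12 with harringtonine and from -2.48 to -0.04 with puromycin. Under this scaling the number of the 10 genes called on ORF footprints was 6 for puromycin against control and 3 for DMDA-PatA against puromycin, and on the 5' UTR 5 for harringtonine.

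The sources used here disagree on which size factors belong to harringtonine and which to DMDA-PatA, and with the other assignment 6 genes were lower and 2 (Lin28a and Xpo5) higher on the 5' UTR with DMDA-PatA, and DMDA-PatA against harringtonine called 4. Lin28a and Xpo5 were tested on the 5' UTR only through libraries with inhibitor. limma called 1 gene on the 5' UTR with puromycin where edgeR called 0, and the cause was not tested. Without 1 library the number of genes called ranged from 2 to 8 for DMDA-PatA against harringtonine, from 7 to 9 against puromycin, from 4 to 7 on the 5' UTR with DMDA-PatA and from 1 to 3 on the 5' UTR with harringtonine.

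Samples that share a replicate number did not deviate together (Pearson r of -0.02 to 0.08 over 9943 coding transcripts), so the numbers were not taken as pairs. With a replicate block 4 of 108 calls were lost, Ago1 with DMDA-PatA relative to the average transcript (0.60), Lin28b with DMDA-PatA against harringtonine (-1.28), Drosha with DMDA-PatA against puromycin (-1.03) and Lin28b in the 5' UTR ratio with puromycin (1.36). Depth limits the genes with few reads, Lin28b, Ago1 and Ago2 with DMDA-PatA and the 5' UTRs of Lin28a, Ago1, Ago2 and Xpo5.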
